A study of Rattus norvegicus with 6 samples.

Results

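The 10 enzymes described here, Cyp7a1, Cyp8b1, Cyp27a1, Cyp7b1, Hsd3b7, Akr1d1, Amacr, Acox2, Baat and Slc27a5, make bile acids from cholesterol in the liver. They were taken as every non-control array probe whose RefSeq transcript maps to one of these symbols. That gave 16 of the 61657 non-control probes, with at least 1 probe for each of the 10 genes, and all 16 were well above background on all 6 arrays. Liver RNA was measured on 1-colour arrays in male Sprague-Dawley (Crl:CD(SD)) rats, an outbred stock bought at 5 weeks of age. Corn oil, the vehicle, was given to 3 animals, and the flame retardant tris(2-chloroethyl) phosphate (TCEP), an organophosphate ester with chlorinated side chains, to 3 others at 400 mg per kg per day. The length of dosing is 9 weeks in the treatment protocol and 28 days in the design text. Each animal had 1 array, and the hour and feeding state at tissue collection are not stated in the labels.

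Bile acid synthesis starts in hepatocytes with hydroxylation of the cholesterol ring by Cyp7a1, the rate-limiting step of the classic pathway, or with oxidation of the side chain by Cyp27a1 in the alternative pathway. Bile acids returning from the gut activate the receptor FXR (Nr1h4), which induces the repressor SHP (Nr0b2), and SHP dampens the activators LRH-1 (Nr5a2) and Hnf4a at Cyp7a1 and Cyp8b1. Cyp7a1 mRNA also follows a daily rhythm in rodents, driven in part by the clock output factor Dbp and by feeding.

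Between 57.2% and 64.4% of the non-control probes were well above background per array. Values are log2 signals relative to the 75th percentile of the array, so a value of 0 is the signal at that percentile, and a difference of 1 is a doubling. The TCEP arrays shared a slide, corn oil replicates 1 and 3 shared another, and corn oil replicate 2 lay on a slide of its own and was scanned 23 days after the rest. Slide and treatment therefore cannot be told apart. Defining markers of hepatocytes were well above background in all 6 livers for 8 of 8 listed genes. Their summed signal, in multiples of the 75th percentile, ran from 4526 to 4988 with corn oil and from 4174 to 4740 with TCEP. The sum is mostly the signal of Ttr, Fgb and Alb. By gene 5 of the 8 had a lower mean with TCEP, beside 49.1% of all genes, with a median of -0.092. They ran from -0.81 ± 0.38 (SE) for Tat to 0.18 ± 0.098 for Hpd. In bulk tissue fewer cells of a type and less RNA per cell cannot be told apart. In the limma fit over 27642 genes 0 passed the adjusted p threshold of 0.05 (0%), and 2543 had an unadjusted p under 0.05 (9.2%). Of these, 54.4% had a higher mean with TCEP. When the arrays were centred on their medians, 2834 genes had an unadjusted p under 0.05, and 76.2% of them had a higher mean.

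The promoter table of RefSeq (assembly GRCr8) held windows for 7 of the 10 enzymes, and none for Cyp7a1, Cyp7b1 and Akr1d1. The 250 bases before the annotated start were searched on both strands for CAAGGNC, the core letters that LRH-1 is known to bind. The stretches that hold it are shown because LRH-1 is the textbook activator of Cyp8b1 and because these 4 members can be set against their measured values. Matches are in capitals, and each stretch of 60 bases is written in the direction of the gene.
Cyp8b1: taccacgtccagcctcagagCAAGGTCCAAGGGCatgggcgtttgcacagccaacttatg
Cyp27a1: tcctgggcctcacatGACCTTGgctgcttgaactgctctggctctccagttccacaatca
Amacr: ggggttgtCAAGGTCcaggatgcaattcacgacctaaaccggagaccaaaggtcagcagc
Acox2: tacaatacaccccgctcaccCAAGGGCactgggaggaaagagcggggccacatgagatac
The Cyp8b1 stretch lies at chr8:130457642-130457701 on the minus strand, and its 2 matches stand end to end, from 89 to 76 bases before the start. The Cyp27a1 stretch lies at chr9:83713282-83713341, the Amacr stretch at chr2:61673085-61673144 and the Acox2 stretch at chr15:19090750-19090809, all on the plus strand, with 1 match each. In Cyp27a1 the match is on the opposite strand. Among all 33469 windows, 15.8% hold at least 1 match and 1.54% hold at least 2, so the letters alone are common. Hsd3b7, Baat and Slc27a5 have no match in this window, which says nothing of the factor. The groups overlapped in all 7 members with a window, those with a match and those without. Among all genes 17.4% did not overlap, so overlap is the common case. Cyp7a1, the only member without overlap, has no window, so members with and without a match cannot be compared in this way.

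Cyp7a1 was the member with the widest gap between the groups. It was read by 1 probe, so agreement between probes could not be checked for it. Its values were 0.20, -0.49 and -0.43 in the corn oil livers and -2.80, -0.92 and -2.22 in the TCEP livers. Every TCEP value lay below every corn oil value, but TCEP replicate 2 lay closer to the corn oil livers than to TCEP replicate 1. Its processed signals were 542, 329 and 396 with corn oil and 80.0, 257 and 113 with TCEP, and the weakest of them was 6.28 times the lowest signal called well above background on its array. The means were -0.24 ± 0.38 and -1.98 ± 0.96 (SD, n = 3 each), a 3.34-fold lower level with TCEP. The log2 difference of -1.74 ± 0.49 (SE), with a 95% interval from -2.92 to -0.56, did not pass the adjusted threshold (limma, Benjamini-Hochberg adjusted p = 0.48). At an unadjusted p of 0.011 (limma) it was the only 1 of the 10 members under 0.05, beside 9.2% of all genes, 4.19% in the lower direction. It was also the only member whose groups did not overlap, beside 17.4% of all genes, 7.06% in the lower direction.

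In size the Cyp7a1 difference was the 19th lowest of the 27642 genes, while its unadjusted p ranked only 633rd. The TCEP animals spread widely: their SD was larger than in 98.9% of genes, and that of the corn oil animals larger than in 81.3%. Leaving out TCEP replicate 2 gave a difference of -2.27 and leaving out TCEP replicate 1 gave -1.33. Within the first scan day, without corn oil replicate 2, it was -1.87 ± 0.58 (SE). With normexp background correction, which pulls in dim signals, it was -1.35.

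**Figure D1:**
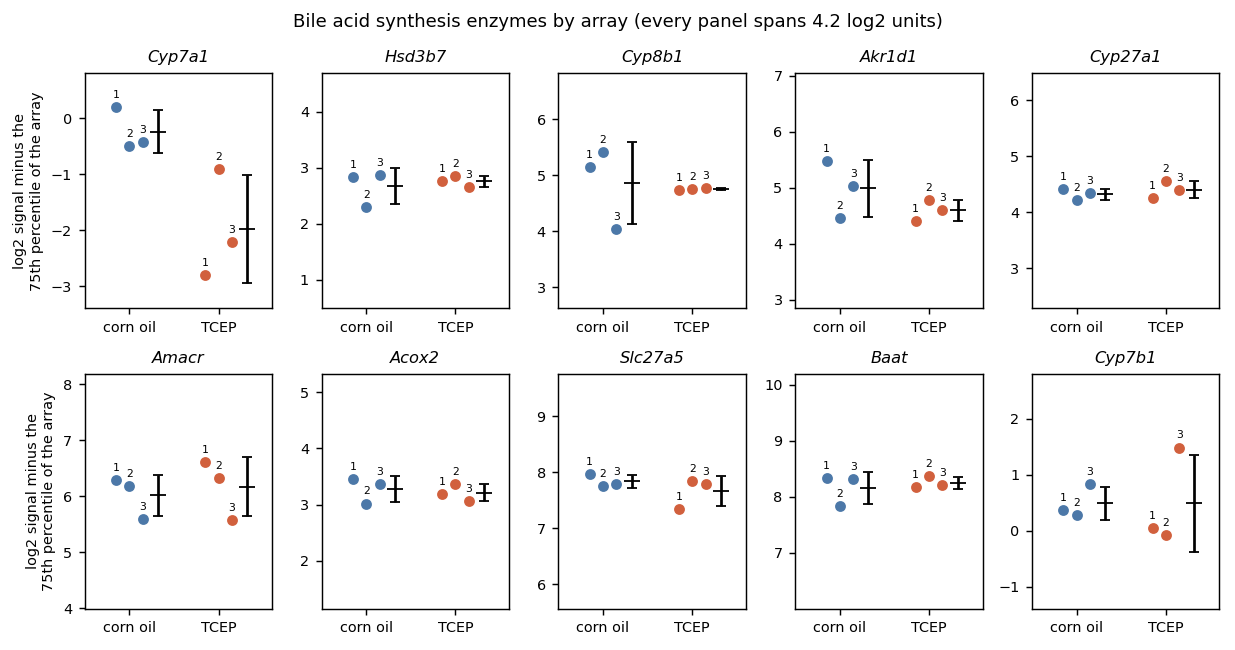
Log2 signal minus the 75th percentile of the array for the 10 enzymes in each liver, with the replicate number above each point; black bars are the mean and SD of 3 animals, and every panel spans the same number of log2 units. Cyp7a1 is the only panel in which all 3 TCEP points lie below all 3 corn oil points, and the 3 Cyp8b1 points of TCEP nearly coincide.

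The enzymes that follow Cyp7a1 on the sterol ring did not share its gap. Hsd3b7, the dehydrogenase that acts on its product, had values of 2.84, 2.31 and 2.87 with corn oil and 2.76, 2.85 and 2.66 with TCEP. The groups overlapped, and the low value was that of corn oil replicate 2. The log2 difference was 0.085 ± 0.17 (SE, 95% interval from -0.33 to 0.50; limma adjusted p = 0.90), and -0.098 without that array.

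Cyp8b1, the sterol hydroxylase that directs synthesis to cholic acid, had values of 5.15, 5.41 and 4.03 with corn oil and 4.73, 4.76 and 4.76 with TCEP. The TCEP livers lay inside the corn oil range, and their SD of 0.017 log2 units was larger than in only 1.35% of genes. In the corn oil livers the SD of 0.73 was larger than in 95.5% of genes. The difference was -0.11 ± 0.35 (SE, 95% interval from -0.96 to 0.73; limma adjusted p = 0.94). Its sign depended on single corn oil animals, with -0.53 when replicate 3 was left out and 0.16 when replicate 2 was.

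Akr1d1, the reductase that gives the sterol ring the bent shape of bile acids, was read by 3 probes. The brightest gave 5.47, 4.46 and 5.03 with corn oil and 4.41, 4.78 and 4.59 with TCEP. Corn oil replicates 1 and 3 lay above all TCEP livers, and corn oil replicate 2 fell among them. The difference was -0.39 ± 0.26 (SE, 95% interval from -1.03 to 0.24; limma adjusted p = 0.67), and the other probes gave -0.51 and -0.27. All 3 probes thus had lower means with TCEP, and they correlated with each other at 0.92 to 0.99 over the 6 arrays. Without corn oil replicate 2 the difference was -0.66 ± 0.19 (unadjusted p = 0.017, limma), and without corn oil replicate 1 it was -0.15.

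**Figure D2:**
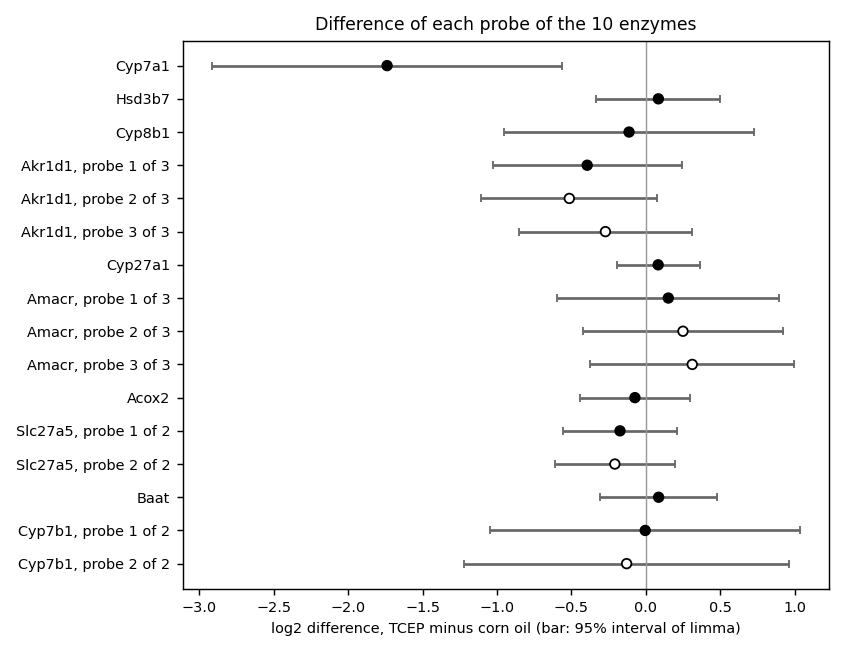
Log2 difference, TCEP minus corn oil, of each of the 16 probes with its 95% interval from the limma fit over all probes; filled points are the brightest probe of a gene and open points its other probes. The Cyp7a1 interval alone lies wholly below 0, and probes of one gene have the same sign.

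Side-chain oxidation is begun by Cyp27a1, the mitochondrial sterol hydroxylase, and completed in peroxisomes after the racemase Amacr has turned the side chain into the form that the oxidase Acox2 accepts. Cyp27a1 was among the steadier members, at 4.41, 4.21 and 4.33 with corn oil and 4.26, 4.55 and 4.39 with TCEP. Its groups overlapped, and the difference was 0.083 ± 0.12 (SE). The 95% interval from -0.20 to 0.36 was the narrowest of the 10 members. Acox2 had values of 3.46, 3.02 and 3.37 with corn oil and 3.19, 3.37 and 3.06 with TCEP. Again corn oil replicate 2 was the lowest of the 6, and the difference was -0.073 ± 0.15 (SE).

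Amacr varied from animal to animal in both groups, at 6.28, 6.17 and 5.60 with corn oil and 6.60, 6.33 and 5.58 with TCEP. Corn oil replicate 3 and TCEP replicate 3 were the low livers, and the groups overlapped. The difference was 0.15 ± 0.31 (SE), and the other probes of the gene gave 0.25 and 0.31. Its 3 probes correlated at 0.96 to 1.00 over the 6 arrays, so the low livers were low on each probe.

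Slc27a5 is the bile acid CoA ligase, and Baat couples the activated bile acid to taurine or glycine, the last step. Slc27a5 had values of 7.98, 7.75 and 7.79 with corn oil and 7.35, 7.85 and 7.79 with TCEP. Only TCEP replicate 1, the liver with the lowest Cyp7a1, lay below the corn oil range. The second probe put the same liver lowest, at 5.01 against 5.51 to 5.61 in the other 5. Without it the difference of -0.17 ± 0.16 (SE) became -0.017. Baat was at 8.34, 7.83 and 8.32 with corn oil and 8.17, 8.37 and 8.22 with TCEP, with overlapping groups and a difference of 0.086 ± 0.16 (SE).

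Cyp7b1, the oxysterol hydroxylase of the alternative pathway, had values of 0.37, 0.28 and 0.83 with corn oil and 0.053, -0.072 and 1.49 with TCEP. The TCEP livers held both the lowest values and the highest, that of TCEP replicate 3. The means of 0.49 ± 0.30 and 0.49 ± 0.87 (SD, n = 3 each) were nearly equal, but the 95% interval of the difference, from -1.05 to 1.04, allows changes of either sign. The second probe, at -1.51 in TCEP replicate 3 and -3.06 to -1.96 elsewhere, set the same liver highest. Without TCEP replicate 3 the difference was -0.50. As with Cyp7a1, the TCEP animals spread widely, with an SD larger than in 98.6% of genes. The liver that was high for Cyp7b1 was among the low ones for Cyp7a1. TCEP replicate 1, the lowest for Cyp7a1, was not high for Cyp7b1, at 0.053. Cyp7a1 and Cyp7b1 correlated at -0.16 over the 6 arrays.

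Over the 10 members 0 passed the adjusted threshold, 6 had a lower mean with TCEP, beside 49.1% of all genes, and 4 a higher one. Their median difference was -0.039, beside 0.0048 over all genes. Without corn oil replicate 1 the counts were 4 lower and 6 higher. Several members followed the array more than the group. Corn oil replicate 2, the array of the later scan, was the lowest of the 6 for 4 members (Cyp27a1, Hsd3b7, Acox2 and Baat) and the highest for Cyp8b1. Hsd3b7 and Baat correlated at 0.97 over the 6 arrays, and at 0.77 without that array. What the scan contributes was not tested. TCEP replicate 1 was the lowest for 3 members, Cyp7a1, Akr1d1 and Slc27a5. Over the 6 arrays Cyp7a1 correlated at 0.80 with Slc27a5, 0.74 with Akr1d1, 0.17 with Cyp8b1 and 0.18 with Cyp27a1. In the deviations from the group means, which leave out the group difference, these correlations were 0.84, 0.62, 0.11 and 0.93. Amacr and Cyp7b1 ran opposite to each other, with a correlation of -0.89. These correlations are descriptions of 6 arrays that share slides and scaling.

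The genes most like Cyp7a1 were sought among 733 genes with a symbol, a signal clear of background on each array and an SD of at least 0.5 log2 units. The highest Pearson correlations over the 6 arrays were those of the netrin receptor Unc5d (0.99), the striated muscle membrane protein Popdc2 (0.92), the muscle adaptor Stac3 (0.91), the transcription factor Sall1 (0.90) and glutamine synthetase, Glul (0.89). In the deviations from the group means, which leave out the difference between the groups, the correlations were 0.97, 0.77, 0.86, 0.95 and 0.63. Unc5d shared with Cyp7a1 the order TCEP replicate 1, 3, 2 from the lowest, at -3.20, -2.44 and -1.81 against -0.90, -1.29 and -1.23 with corn oil. The second kept probe of Unc5d had a difference of -0.0079 against -1.34 for this one.

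The lowest correlations were those of the adenylyl cyclase Adcy10 (-0.97), the ammonium carrier Rhbg (-0.95), the imprinted RNA H19 (-0.94), the membrane protein gene Nipal2 (-0.92) and App, the amyloid precursor protein gene (-0.91). H19 was at -3.45, -3.07 and -2.72 with corn oil and -0.69, -1.59 and -0.61 with TCEP, so the liver with the highest Cyp7a1 of its group had the lowest H19. Of these 10 genes 0 passed the adjusted threshold, and their likeness rests on 6 arrays.

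**Figure D3:**
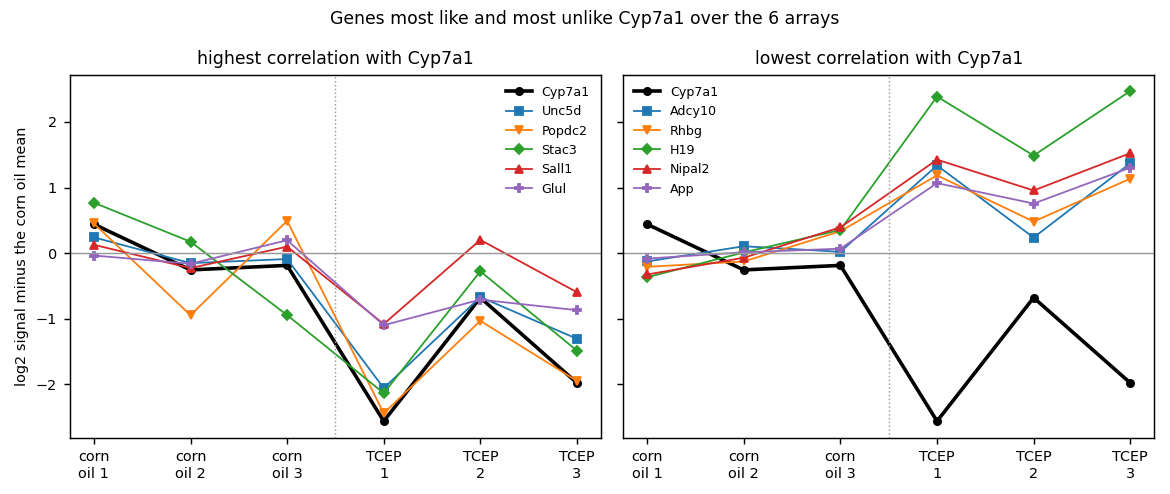
Log2 signal minus the mean of the corn oil arrays, for Cyp7a1 (black) and the 5 genes with the highest (left) and lowest (right) correlation with it over the 6 arrays; lines only join the points of a gene, and the replicates have no order. In TCEP replicate 2 Cyp7a1 and Unc5d are both nearer to the corn oil arrays than in TCEP replicates 1 and 3.

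Regulators of Cyp7a1 and Cyp8b1 were read for 18 of 21 listed genes, of which 7 had higher and 11 lower means with TCEP, and the median difference was -0.10. The 0 members past the adjusted threshold match the 0% of all genes, and 1 of 18, FXR (Nr1h4), had an unadjusted p under 0.05, beside 9.2% of all genes. Nr1h4 had values of 5.06, 5.09 and 4.82 with corn oil and 5.20, 5.34 and 5.71 with TCEP. Its groups did not overlap, and neither did those of Nr1h2, at 0.14 ± 0.086 (SE). These were 2 of the 18, both higher, beside 10.3% of all genes in that direction. The Nr1h4 difference was 0.42 ± 0.16 (SE; limma adjusted p = 0.53), and its 3 probes gave 0.30 to 0.46. Its unadjusted p of 0.038 was not under 0.05 in 10 of the 18 alternatives, among them 5 of the 6 fits with 1 array left out, and reached 0.11 without corn oil replicate 3 (limma). SHP (Nr0b2) had values of 6.39, 4.02 and 7.13 with corn oil and 5.91, 7.03 and 6.32 with TCEP. The corn oil animals alone spanned the whole range of the 6, and its difference of 0.57 ± 0.80 (SE) became -0.34 ± 0.39 without corn oil replicate 2. LRH-1 (Nr5a2) and Hnf4a had differences of -0.098 ± 0.16 and -0.24 ± 0.14 (SE), the bile acid and drug receptor Pxr (Nr1i2) -0.16 ± 0.21, and Fgfr4, the receptor of the gut hormone that represses Cyp7a1, -0.21 ± 0.13.

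Among 15 measured clock genes 1 had an unadjusted p under 0.05, beside 9.2% of all genes. It was Dbp, the clock output factor that is known to bind the Cyp7a1 promoter. Its values were 2.29, 2.27 and 2.11 with corn oil and 2.60, 2.48 and 2.77 with TCEP, without overlap. The difference was 0.39 ± 0.11 (SE; limma adjusted p = 0.48), and its 4 probes gave 0.34 to 0.40. Dbp and Cyp7a1 thus had differences of opposite sign. In the rest of the list the groups overlapped. Npas2 had a difference of -0.41 ± 0.17 (SE; unadjusted p = 0.052, limma), and the core factors Bmal1 and Clock 0.0070 ± 0.13 and -0.093 ± 0.14. The repressors Nr1d1 and Per2 had 0.24 ± 0.26 and -0.57 ± 0.34, and Usp2 -0.19 ± 0.22 (SE). The list's median difference was 0.0070. What the hour of collection contributes to Cyp7a1 was not tested.

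A further 12 measured genes that serve bile acid synthesis were read, not all of them enzymes, since Pex5 and Abcd3 were included. Of the 12, 10 had a higher mean with TCEP, beside 50.9% of all genes, and the median difference was 0.16. With quantile normalization 8 of the 12 were higher. The groups did not overlap for 5 of the 12, Cyp3a9, Cyp39a1, Hsd17b10, Slc27a2 and Hsd17b4, all higher with TCEP, beside 10.3% of all genes in that direction. Cyp3a9, a steroid and bile acid hydroxylase also counted among the drug-inducible P450 genes, had the largest gap: 3.46, 3.37 and 3.20 with corn oil and 4.74, 4.25 and 4.44 with TCEP. At 1.13 ± 0.15 (SE, limma adjusted p = 0.29) it was the 1 gene of the 12 with an unadjusted p under 0.05, beside 9.2% of all genes. Cyp39a1, which hydroxylates another oxysterol, had a difference of 0.33 ± 0.15 (SE). The peroxisomal enzymes Slc27a2, Hsd17b4 and Scp2, shared with fatty acid oxidation, had differences of 0.10 ± 0.086, 0.079 ± 0.086 and -0.035 ± 0.12 (SE). The kept probes of Scp2 differed in sign, at -0.035 and 0.014.

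Transport of bile acids was read for 11 of 14 listed genes, with 8 lower and 3 higher means, beside 49.1% of all genes lower. Without corn oil replicate 1 the counts were 5 lower and 6 higher. RNA of Slc10a1, the main sodium-dependent uptake carrier, had a difference of -0.018 ± 0.14 (SE), and that of the uptake carrier Slco1a4 -0.026 ± 0.39. Abcb11, the pump that secretes bile acids into bile, had -0.094 ± 0.087. The export pump Abcc3 of the sinusoidal side was the 1 gene of the 11 with an unadjusted p under 0.05, beside 9.2% of all genes. Its values were -1.999, -1.72 and -3.04 with corn oil and -0.04, -0.09 and 0.11 with TCEP. That difference of 2.25 ± 0.33 (SE; limma adjusted p = 0.29) had no counterpart among the other 10 carriers, which lay between -0.68 and 0.22.

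Genes of cholesterol supply and output, the substrate side of the pathway, gave 7 higher and 8 lower means over 15 measured genes. These counts moved with single animals, to 12 higher and 3 lower without TCEP replicate 1, 4 and 11 without TCEP replicate 2, and 10 and 5 without corn oil replicate 1. Hmgcs1, an early enzyme of cholesterol synthesis, had a difference of -0.095 ± 0.33 (SE), and Lcat, which esterifies plasma cholesterol, 0.025 ± 0.12. Only Stard4, a carrier of cholesterol between membranes, had an unadjusted p under 0.05, 1 of 15 beside 9.2% of all genes. Its values were 2.36, 2.44 and 2.39 with corn oil and 2.84, 2.74 and 3.25 with TCEP. The difference was 0.55 ± 0.15 (SE, limma adjusted p = 0.48). Abcg5, which exports cholesterol into bile, had -0.75 ± 0.34 (SE) with overlapping groups.

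Cyp7a1 is known to be stronger near the central vein of the lobule, and 15 genes of that zone were set beside it. Their median difference was 0.091, with 8 higher and 7 lower means. When probes had to be well above background on all 6 arrays, which Lgr5 was not, the median was -0.084. The means were then 7 higher and 7 lower. In the other alternatives the median ran from -0.053 with normexp background correction to 0.15 with centring on the median. Glul was at 3.24, 3.11 and 3.47 with corn oil and 2.18, 2.57 and 2.41 with TCEP, a difference of -0.89 ± 0.15 (SE; limma adjusted p = 0.30). Rhbg, which is found in the same cells as Glul, had the opposite sign: 0.43, 0.52 and 0.98 with corn oil and 1.83, 1.12 and 1.78 with TCEP, a difference of 0.93 ± 0.24 (SE; limma adjusted p = 0.47). The vasopressin receptor Avpr1a had -0.51 ± 0.20, and Cyp2e1, an abundant P450 of that zone, 0.091 ± 0.19 (SE). Glul, Rhbg and Avpr1a were the 3 genes of the zone with an unadjusted p under 0.05, 3 of 15 beside 9.2% of all genes, and they did not share a sign. Without overlap 2 genes were lower, Glul and Slc1a2 (-0.43 ± 0.18), and 1 higher, Rhbg, beside 7.06% and 10.3% of all genes. The other lower genes were Tbx3 (-0.73 ± 0.57), Axin2 (-0.48 ± 0.40), Oat (-0.42 ± 0.35) and Cyp1a2 (-0.26 ± 0.19, SE), with overlapping groups. Apart from Rhbg, the higher genes lay between 0.091 and 0.26. For Avpr1a the unadjusted p of 0.043 was not under 0.05 in 7 of the 18 alternatives, 4 of them fits with 1 array left out (limma).

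**Figure D4:**
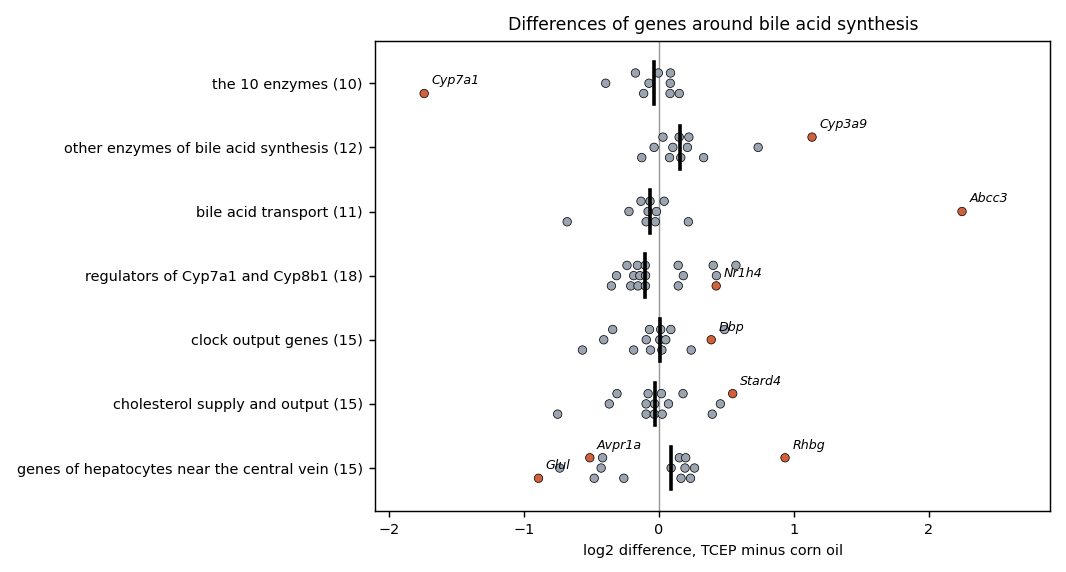
Log2 difference, TCEP minus corn oil, of each measured gene in the 10 enzymes and in the 6 related lists, with the number measured in parentheses; red points have an unadjusted p under 0.05 in limma, and black bars are the medians. Cyp7a1 is the lowest point and Abcc3 the highest, and every median lies between -0.10 and 0.16.

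Markers of other liver cell types were read beside Cyp7a1. Summed signals overlapped between the groups for macrophages (56.4 to 133 with corn oil, 80.5 to 94.97 with TCEP), endothelial cells, leukocytes, erythroid cells and cholangiocytes (13.8 to 15.9 and 12.9 to 13.9). The cholangiocyte sum is mostly the signal of Slc4a2 (difference -0.22). Of the 6 measured cholangiocyte genes 4 had higher means with TCEP, beside 50.9% of all genes, with a median of 0.25. Under an unadjusted p of 0.05 (limma) were 2 of the 6, beside 9.2% of all genes. They were Spp1, at 1.04 ± 0.35, and Epcam, at 0.52 ± 0.16 (SE). Krt19 had 0.50 ± 0.24, Cftr 0.0058 ± 0.24 and Krt7 -0.27 ± 0.18 (SE). Without overlap 2 of the 6 were higher and 1 lower, beside 10.3% and 7.06% of all genes. The stellate cell and fibroblast sum did not overlap, at 39.9 to 43.4 with corn oil and 37.9 to 39.6 with TCEP over 9 of 9 listed genes. Of these 9 genes 8 had a lower mean, beside 49.1% of all genes, and 3 were lower without overlap, beside 7.06%. Lrat, at -0.43 ± 0.15 (SE), was the 1 with an unadjusted p under 0.05 (limma), beside 9.2% of all genes. Col3a1, the brightest, had 0.080 ± 0.092 (SE). The part of either cell type in the Cyp7a1 difference was not tested.

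**Figure D5:**
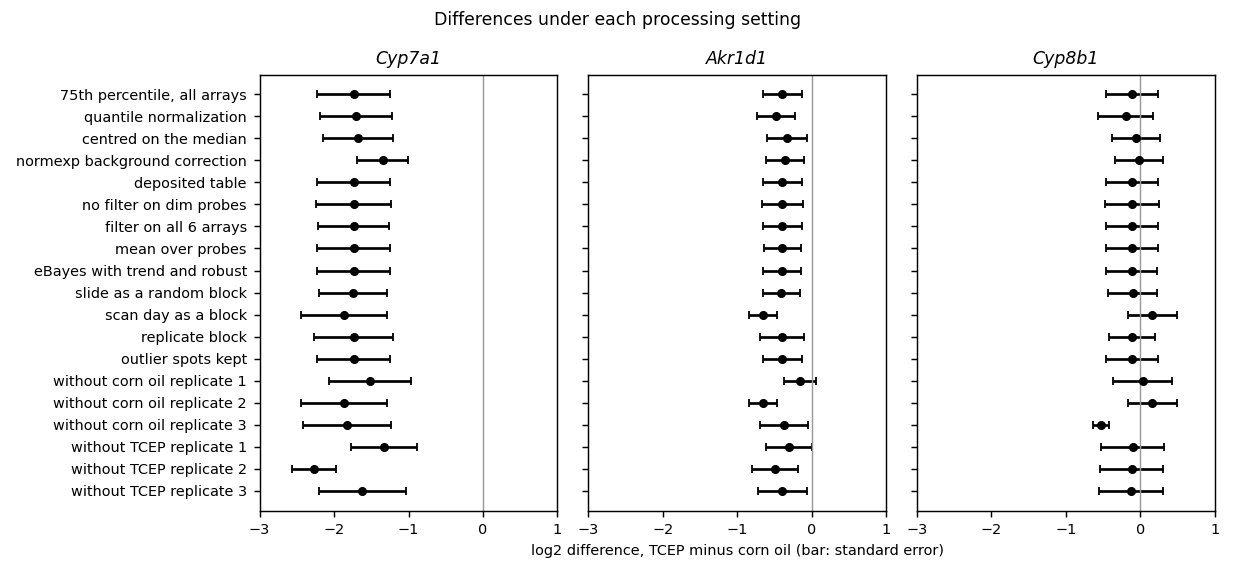
Log2 difference, TCEP minus corn oil, with its standard error for Cyp7a1, Akr1d1 and Cyp8b1 under the reported setting (top) and 18 alternatives. Cyp7a1 stays between -2.27 and -1.33, Akr1d1 between -0.66 and -0.15, and Cyp8b1 crosses 0 when corn oil replicate 1 or 2 is left out or scan day is a block.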

How the data were processed

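Per the file headers, the authors extracted 1-colour (Cy3) arrays with Agilent Feature Extraction 10.7.1.1, and the deposited scanner files hold a background-subtracted processed signal intensity and 0 or 1 flags per spot. The deposited value table holds a linear ratio, the processed signal over each array's 75th percentile, as read from the values (within 0.0027 log2 units for signals over 100).

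From the scanner files, log2 processed signal minus the 75th percentile of the non-control probes was computed. Control spots (1319) were left out and 64 outlier-flagged spots set to missing. Probes had to be well above background on each array of 1 group or both (37043 probes). Unversioned accessions were matched to symbols in a RefSeq table of rat assembly GRCr8, for 27460 probes. The brightest probe represented a gene, which gave 27642 names; every probe was also fitted on its own. Probe coordinates are not given, since the design of the array predates that assembly. Groups were compared in R 4.3.3 with limma 3.58.1 (lmFit, then eBayes). Tests were two-sided, p-values were adjusted by Benjamini-Hochberg over all genes, and the threshold was 0.05, without the replicate number as a term. Arrays limit the precision to 3 animals per group: the median SE of a log2 difference was 0.145. The fit was tested on simulated data.

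The members and the lists of related genes were chosen with earlier results of these data known, and some lists hold genes, such as Abcc3, Cyp3a9 and Glul, whose differences were known. Named from each related list were up to 4 genes with an unadjusted p under 0.05, or else its 2 brightest; the single gene under 0.05 of a list, and other members named by role, were added after their values were seen. The genes most like Cyp7a1 were the 5 highest and 5 lowest by correlation. Alternatives were quantile normalization, centring on the median, normexp with an offset of 50 (on median signals), the deposited value table, dim probes kept or filtered more strictly (all 6 arrays), averaging the probes of a gene, a trended and robust eBayes, the scan day or the replicate number as a block, a random block for slide, outlier spots kept, and leaving out each array.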

Additional observations from a re-analysis of the deposited data

How the results depend on the processing

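Under each of the 18 alternatives 0 genes passed the adjusted threshold (smallest adjusted p 0.29 in the reported fit). With every probe fitted on its own 0 passed (3312 at an unadjusted p under 0.05, limma), against 2 with normexp background correction and 0 to 1 with 1 array left out. The count at an unadjusted p under 0.05, 2543, ran from 1644 (without TCEP replicate 3) to 3224 with 1 array left out, and its higher share was 76.2% with centring on the median and 37.9% with no filter on dim probes. Cyp7a1 kept its direction in all 18 alternatives, from -2.27 to -1.33 with 1 array left out, with adjusted p from 0.33 to 0.85 (limma); where groups do not overlap, leaving out an array cannot turn the sign. Same-numbered replicates did not deviate together (correlations of -0.048, -0.16 and -0.015, and no array was closest to its own number). With the replicate number as a block the count of 2543 was 1901, and Cyp7a1 had -1.74 ± 0.53 (SE; limma adjusted p = 0.70).

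Of the 10 members 6 changed sign somewhere. With scan day as a block the differences were 0.16 for Cyp8b1, -0.098 for Hsd3b7, -0.079 for Baat, -0.34 for Nr0b2 and -0.044 for Lcat. Centring on the median gave 0.055 for Cyp7b1, 0.041 for Slc10a1, 0.033 for Slco1a4 and 0.024 for Scp2. Normexp gave 0.015 for Acox2, 0.11 for Slco1a4, -0.022 for Lcat and 0.046 for the second Cyp7b1 probe, and quantile normalization -0.067 for Lcat. With 1 array left out the range was -0.53 to 0.16 for Cyp8b1, -0.50 to 0.28 for Cyp7b1 (-0.63 to 0.15 for its second probe), -0.098 to 0.18 for Hsd3b7, -0.065 to 0.45 for Amacr, -0.21 to 0.015 for Acox2 and -0.079 to 0.17 for Baat. It was -0.14 to 0.054 for Slc10a1, -0.50 to 0.27 for Slco1a4, -0.33 to 0.17 for Hmgcs1, -0.054 to 0.075 for Lcat, -0.097 to 0.048 for Scp2 and -0.34 to 1.21 for Nr0b2. Beyond the arrays left out, the cause was not tested.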
